A study of Mus musculus with 2 samples.

Results

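The heat shock proteins and their cochaperones were followed in long-read RNA sequencing of the mouse adrenal gland. The set holds 47 genes, taken by symbol from a list of the main HSP70, HSP110, HSP90, small heat shock, chaperonin and J protein families with their cochaperones, out of 15683 annotated genes that had a read. All 47 had at least 1 read in replicate 2, and 46 had one in replicate 1, where Hspb7 was at 0. The tissue came from male B6CASTF1/J mice aged 36 days, a first-generation cross of a C57BL/6J and a CAST/EiJ parent, with no treatment and no other genotype. There was 1 group with 2 libraries, replicate 1 and replicate 2, so the only comparison is between these libraries. The labels number the animal alike for both libraries in one field and differently in another, so it is not certain that the libraries came from separate animals, and the spread between them may be technical.

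Chaperones bind unfolded stretches of other proteins and keep them from clumping. HSP70 proteins work in cycles of ATP hydrolysis that J proteins start and nucleotide exchange factors such as HSP110 and BAG proteins end, HSP90 takes over clients such as the steroid receptors, and the barrel-shaped chaperonins enclose a protein while it folds. In stressed cells the heat shock factor HSF1 binds repeats of nGAAn in promoters and raises the inducible members, while the endoplasmic reticulum has its own set of chaperones under the unfolded protein response. Steroid-making cells of the adrenal cortex import cholesterol into mitochondria and hold much smooth endoplasmic reticulum, so chaperones of several compartments are at work there.

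Replicate 1 had 452489 reads outside the spike-ins and replicate 2 had 463210, and levels are given as CPM, these reads scaled to a total of 1000000. A long read counts 1 transcript whatever its length, so levels were not divided by length, although short and long transcripts may not be captured equally well. Defining genes of the labelled tissue were abundant as sums in both libraries: 7 steroidogenic cortex genes summed to 29832 and 24784 reads, and 7 chromaffin genes to 4755 and 7147. Both lists also held scarce genes: Mc2r of the cortex had 35 and 36 reads, and the chromaffin genes Slc18a1 and Ddc had 12 and 11 and 2 and 3. These lists differed between the libraries: 6 of the 7 cortex genes had an adjusted p under 0.05 and a higher level in replicate 1, from 1.12-fold for Cyp11b1 to 2.17-fold for Nr5a1, the 1 called. Of 6 tested chromaffin genes, 4 had an adjusted p under 0.05 and a higher level in replicate 2, from 1.14-fold for Th to 1.9-fold for Pnmt, with 0 called. Of 8 fat genes 1 was called, Ucp1 with 198 and 437 reads. The fat list was mixed, with 5 genes higher and 3 lower in replicate 2, among the latter Car3 with 1664 and 1019 reads. It summed to 3817 and 4193 reads. The part of these lists in the results on chaperones was not tested. Replicate 2 had 4727 reads of 26 pancreas acinar genes against 40 in replicate 1, all 25 tested ones called higher, and 270 reads of 8 liver genes against 3. Replicate 1 had 1505 reads of 12 immediate early genes against 521, with 4 of 8 tested called higher there, led by Nr4a1 with 519 and 8 reads. In bulk tissue, fewer cells of a type and less RNA per cell cannot be told apart.

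Promoters were read from RefSeq's table for GRCm38.p6, which held 39 of the 47 genes, as the 250 bases before each RefSeq start. GENCODE M21 places some starts further upstream, so a window can hold part of an annotated first exon. A pair of inverted HSF1-type units (GAANNTTC or TTCNNGAA, where N is any base and each reads the same on both strands) lay in the window of 13 of the 39 genes, against 14.5% of the 27025 genes in the table. A run of 3 units, which is GAANNTTC with GAA again after 2 bases of any kind, searched on both strands and overlapping the pairs, lay in the window of 3 of the 39, Hspd1, Hspe1 and Dnajb6, against 0.514% of all genes. The ER stress element, CCAAT and CCACG with 9 bases of any kind between them, searched on both strands, lay in the window of 3 of the 39, Hspa5, Hsp90b1 and Dnajc3, against 0.13% of all genes. The sites below are shown because they belong to genes that the comparisons return to. Capitals mark the matched element, and each sequence runs 5′ to 3′ on the gene's strand.
Hspd1, chr1:55088054-55088081, minus strand: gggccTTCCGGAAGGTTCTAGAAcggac
Hspe1, chr1:55088054-55088081, plus strand: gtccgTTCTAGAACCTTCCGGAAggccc
Dnajb6, chr5:29735847-29735869, plus strand: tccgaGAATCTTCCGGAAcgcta
Hspa1a, chr17:34972248-34972265, minus strand: tgctgGAAGATTCctggc
Hsph1, chr5:149636357-149636374, minus strand: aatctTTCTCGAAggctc
Dnaja1, chr4:40722339-40722356, plus strand: ctctaGAAAATTCtacga
Hspa5, chr2:34772020-34772048, plus strand: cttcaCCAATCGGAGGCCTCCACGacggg
Hsp90b1, chr10:86705633-86705661, minus strand: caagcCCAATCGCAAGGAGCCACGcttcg
Dnajc3, chr14:118937822-118937850, plus strand: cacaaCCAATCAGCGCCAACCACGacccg
Hspd1 and Hspe1, which encode the mitochondrial chaperonin and its lid, are read in opposite directions from the same stretch, so their element is the same site on opposite strands. The printed sites of Hspd1, Hspe1, Dnajb6, Hsph1, Dnaja1 and Hspa5 lie within an exon of a GENCODE M21 transcript, that of Hspa5 inside the first exon of Hspa5-201, which starts at 34771970. Those of Hspa1a, Hsp90b1 and Dnajc3 do not. A match is a description of letters, and no match within 250 bases says only that these letters are not in that window.

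The 47 genes made up 1.86% of reads in replicate 1 (8418 reads, 18604 CPM) and 1.34% in replicate 2 (6196 reads, 13376 CPM), or 15990 ± 3696 CPM (SD, n = 2). Most of the set was lower in replicate 2. Of 44 genes with at least 10 reads over both libraries, 38 had a lower level there and 6 a higher one. Over all genes tested, 4493 had a lower level there and 3642 a higher one. The log2 ratio, of replicate 2 over replicate 1 after adding 1 CPM, had a median of -0.47, against -0.03 over all 8135 genes tested. The 3 genes under the minimum were Hspa12a with 4 and 5 reads in replicates 1 and 2, Hspb7 with 0 and 1, and Dnajb5 with 8 and 1.

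Each gene's reads were compared between the libraries by a two-sided Fisher's exact test, adjusted by Benjamini-Hochberg over all 8135 genes, and a call needed both an adjusted p under 0.05 and at least a 2-fold difference. This test covers counting error only and compares these libraries, not animals or conditions. By this rule 7 of the 44 genes were higher in replicate 1, where 1.71% of all genes were called, and 0 were higher in replicate 2, where 1.45% of all genes were called (3.16% in either direction). The 1 gene with a significant excess in replicate 2, Hspb1, was under 2-fold. At an adjusted p under 0.05 with any fold, 18 of the 44 passed, against 6.45% of all genes. Such shares depend on read depth, and the set was not matched to all genes in depth. With a minimum of 20 reads, 4.1% of all genes were called in either direction. The 7 called genes were Hspa1a, Hspa1b, Hspa8, Dnaja1, Dnajb1, Dnajb9 and Bag3.

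**Figure D1:**
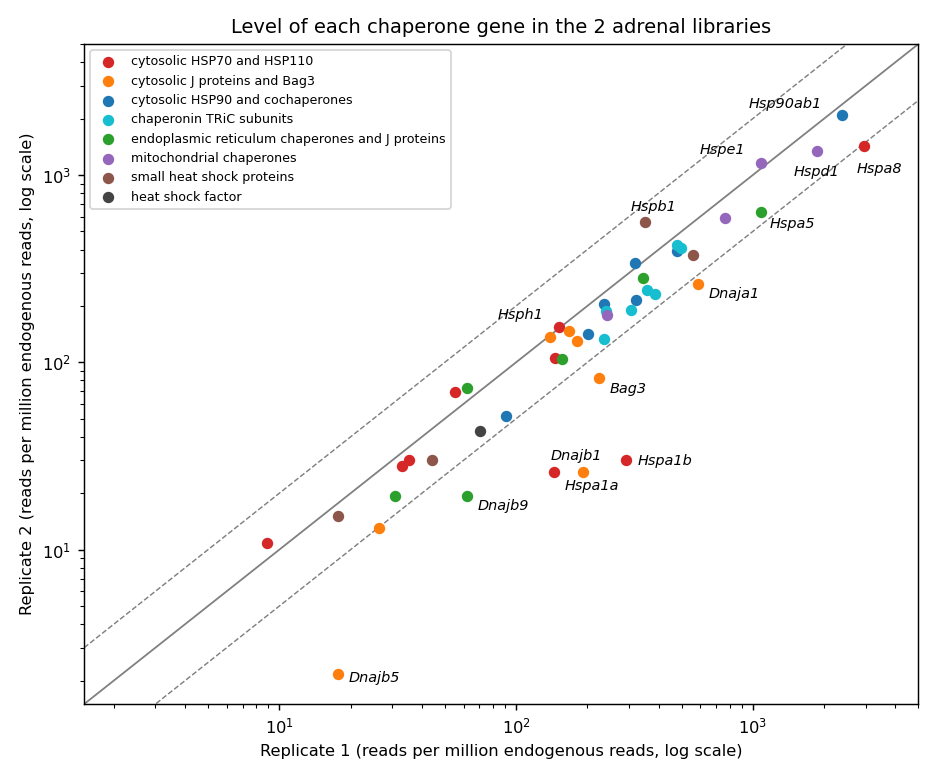
Level of each gene in replicate 1 (horizontal) and replicate 2 (vertical), in CPM on log axes, 1 point per gene, coloured by role, with the line of equal levels and dashed lines at 2-fold. Hspb7, at 0 in replicate 1, is not drawn. Hspa1a, Hspa1b and Dnajb1 lie far below the lower dashed line, as does the scarce Dnajb5, and Hspb1 lies above the line of equal levels.

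The inducible cytosolic HSP70 pair was far higher in replicate 1, and Hspa1b had the largest ratio of the 44 tested genes. Hspa1b had 132 reads in replicate 1 and 14 in replicate 2 (292 and 30.2 CPM), and Hspa1a had 65 and 12 (144 and 25.9 CPM). The excess in replicate 1 was 9.65-fold for Hspa1b (exact 95% interval 5.55 to 18.1, adjusted p = 7.5e-24, Fisher's exact test) and 5.55-fold for Hspa1a (2.97 to 11.3, adjusted p = 1.67e-08, Fisher's exact test). The copies are single-exon genes on chromosome 17 (mm10, GENCODE M21), Hspa1b at 34956436 to 34959238 and Hspa1a at 34969190 to 34972156, both on the minus strand. Their coding sequences differ at 8 of 1923 aligned bases (99.6% identity), so a read that ends within the coding part is hard to place. Their sum was 197 and 26 reads, 7.76-fold higher in replicate 1 (5.14 to 12.2), and Hspa1a held 33.0% of it in replicate 1 and 46.2% in replicate 2 (Wilson 95% intervals 26.8 to 39.8% and 28.8 to 64.5%), a shift that the reads did not resolve (Fisher's exact p = 0.194). The 250 bases before the starts differ at only 3 positions, shown here for Hspa1b with the pair of GAA units in capitals.
Hspa1b, chr17:34959239-34959488, minus strand: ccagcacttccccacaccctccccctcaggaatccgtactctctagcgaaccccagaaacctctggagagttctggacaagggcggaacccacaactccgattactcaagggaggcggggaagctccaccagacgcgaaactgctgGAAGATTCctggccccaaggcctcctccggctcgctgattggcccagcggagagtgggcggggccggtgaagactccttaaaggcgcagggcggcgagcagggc
The immediate early list was also higher in replicate 1 (1505 and 521 reads, all 8 tested genes lower in replicate 2), and its part in the difference was not tested.

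Hspa8, the constitutive cytosolic HSP70 known as HSC70, was the most abundant member of its family. It had 1331 reads in replicate 1 and 659 in replicate 2 (2942 and 1423 CPM), 2.07-fold higher in replicate 1 (1.88 to 2.27, adjusted p = 4.25e-53, Fisher's exact test). This call stands at the edge of the 2-fold rule and was lost with TMM scaling and over full-length reads alone, where the difference kept its direction and an adjusted p under 0.05.

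A processed pseudogene collected nearly as many reads as Hspa8 itself. Gm15459, a single-exon gene at chromosome 5, 5781615 to 5783555, minus strand, had 1195 reads in replicate 1 and 604 in replicate 2. Its 1941 bases match the whole Hspa8 coding sequence with its stop codon, with 5 differing bases, counted from the first base of the start codon: G114A, C414T, C549T, G1222A and C1440T (the base of Hspa8, the position, the base of Gm15459). The stretch around the first of these is shown with the differing base in capitals, to show how little separates reads of the 2 loci.
Hspa8, coding bases 102 to 126: taaccgcaccacGccaagctatgtt
Gm15459, the same bases: taaccgcaccacAccaagctatgtt
Gm15459 took 47.3% of the reads of the 2 loci in replicate 1 (Wilson 95% interval 45.4 to 49.3%) and 47.8% in replicate 2 (45.1 to 50.6%), a share that did not differ beyond counting error (Fisher's exact p = 0.783). It was itself 2.03-fold higher in replicate 1 (1.84 to 2.24), and the sum of both loci was 2526 and 1263 reads, 2.05-fold higher (1.91 to 2.19). From which locus the reads of Gm15459 came was not tested.

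**Figure D2:**
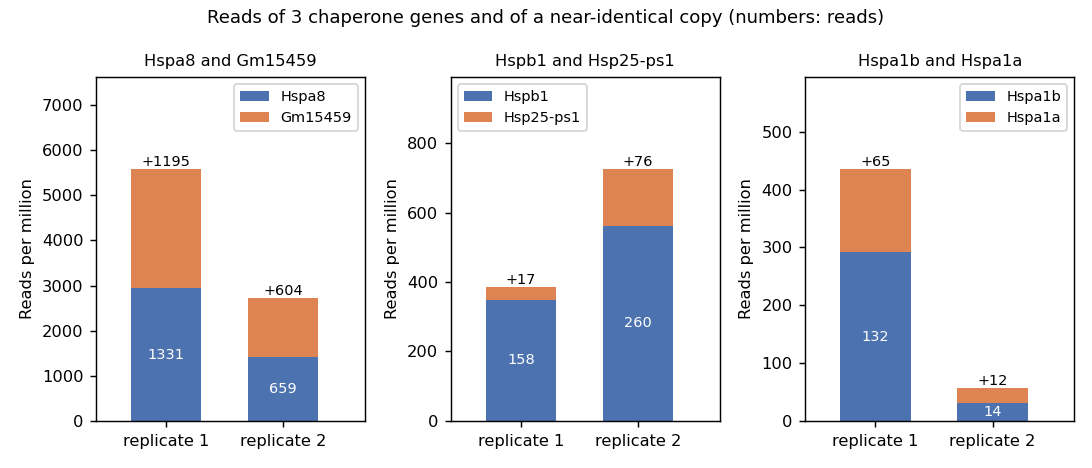
Level in CPM (each vertical axis starts at 0 and has its own scale) in replicates 1 and 2 for Hspa8 with its pseudogene Gm15459, Hspb1 with its pseudogene Hsp25-ps1, and Hspa1b with Hspa1a, stacked, with the reads of each printed. Gm15459 holds 47.3 and 47.8% of its pair, whereas Hsp25-ps1 holds 9.71 and 22.6% of its pair.

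The other cytosolic HSP70 and HSP110 genes were not called, where 3.16% of all genes were called. Hsph1, the HSP110 that exchanges nucleotide on HSP70, had 69 and 72 reads (1.02-fold, 0.722 to 1.44). Hspa4, also an HSP110, had 66 and 49. Hspa2, an HSP70 best known from the testis, had 25 and 32. Hspa4l with 15 and 13 reads and Hspa14 with 16 and 14 were scarce in both libraries, and the 8 tested genes of this group had a median of -0.35 on the log2 scale. At such depths a 2-fold difference was not detectable, and the interval for Hspa2 (1.25-fold higher in replicate 2) ran from 0.718 to 2.2.

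In the group of cytosolic J proteins and Bag3, 3 of 7 tested genes were called, where 3.16% of all genes were called. Dnajb1, the J protein that partners inducible HSP70, had 87 reads in replicate 1 and 12 in replicate 2, 7.42-fold higher in replicate 1 (4.04 to 14.9, adjusted p = 1.3e-13, Fisher's exact test). Bag3, a nucleotide exchange factor that joins HSP70 to small heat shock proteins and autophagy, had 101 and 38 reads, 2.72-fold higher (1.86 to 4.06, adjusted p = 1.66e-06, Fisher's exact test). Dnaja1, a farnesylated J protein of the cytosol, had 265 and 122 reads, 2.22-fold higher (1.79 to 2.78, adjusted p = 3.65e-12, Fisher's exact test). Dnaja2 with 82 and 60 reads, Dnajb6 with 76 and 68, Dnajb4 with 12 and 6 and Dnajb2 with 63 and 63 were not called. The 7 tested genes of this group all had a lower level in replicate 2, as did 4493 of all 8135 genes tested. The median of the 7 genes was -0.98 on the log2 scale, the lowest among the 8 groups by role. Hsf1, the transcription factor itself, had 32 and 20 reads, a 1.64-fold difference whose interval (0.908 to 3.02) included equality.

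**Figure D3:**
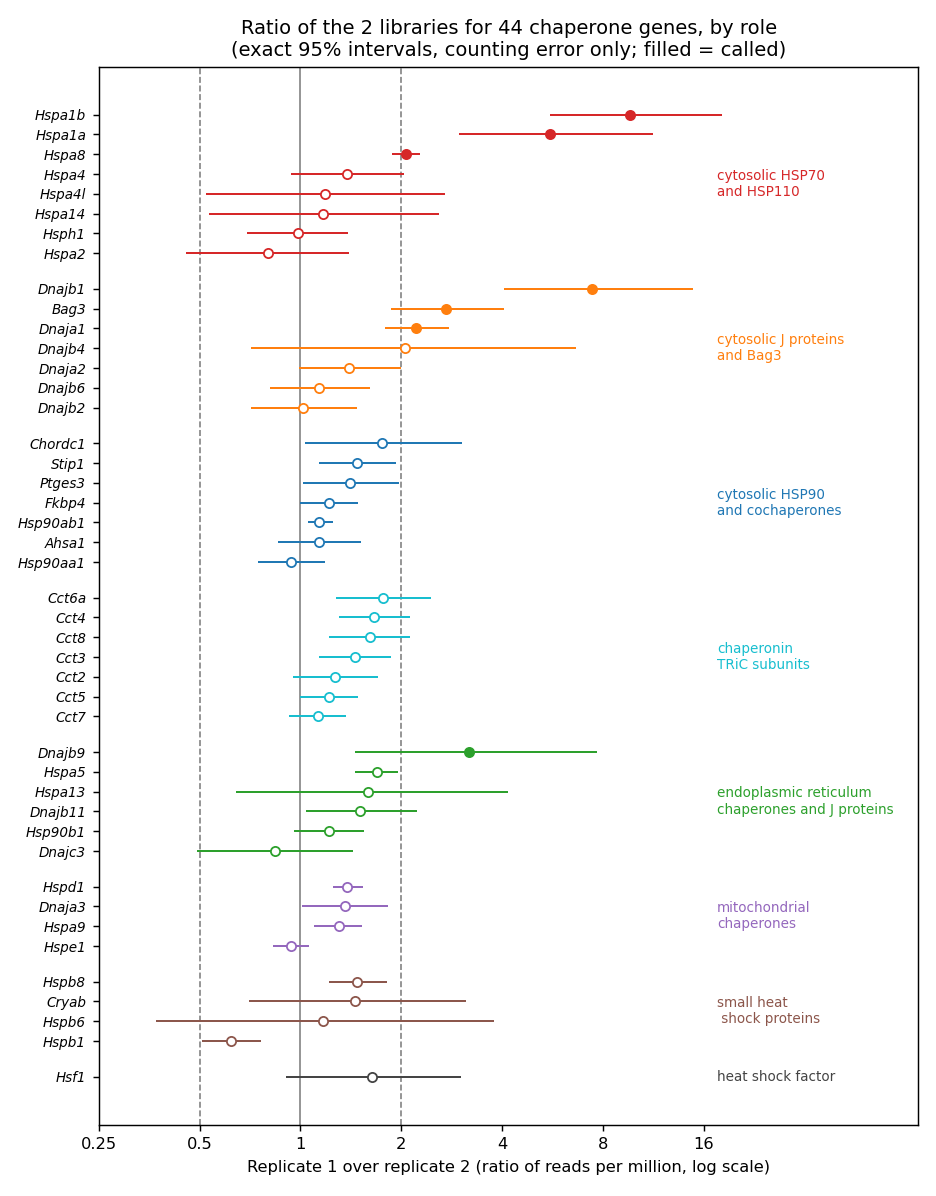
Ratio of replicate 1 to replicate 2 in CPM for the 44 tested genes, on a log axis, grouped by role, with exact 95% intervals for counting error; filled points were called. The 7 called genes lie right of the 2-fold line, and 6 genes, among them Hspb1, lie left of 1.

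In the cytosolic HSP90 group 0 of 7 genes were called, where 3.16% of all genes were called. Hsp90ab1, the constitutive HSP90, ranked 28th among all genes by mean CPM and Hspa8 30th, an order that was the reverse in replicate 1 (2389 and 2942 CPM) and in both libraries once the reads of Gm15459 were added to Hspa8 (5582 and 2727 CPM). Hsp90ab1 had 1081 reads in replicate 1 and 969 in replicate 2 (2389 and 2092 CPM). Its 1.14-fold difference (1.05 to 1.25) had an adjusted p of 0.0447 in Fisher's exact test and was above 0.05 with TMM or DESeq2 scaling, over full-length reads and with a total free of acinar, liver and ribosomal RNA locus genes. Hsp90aa1, the inducible HSP90, had 144 and 157 reads (1.07-fold higher in replicate 2, 0.844 to 1.34), an interval that excludes the differences of the inducible HSP70 pair. Among the cochaperones, Stip1, which bridges HSP70 and HSP90, had 145 and 100 reads (1.48-fold higher in replicate 1, 1.14 to 1.93, adjusted p = 0.0419, Fisher's exact test), an adjusted p that was above 0.05 with TMM or DESeq2 scaling and with the reduced total. Fkbp4, the immunophilin of steroid receptor complexes, had 217 and 182 reads. Ahsa1, which stimulates the HSP90 ATPase, had 106 and 95, Ptges3, the p23 cochaperone, had 91 and 66, and Chordc1 had 41 and 24. The median log2 ratio of the 7 genes was -0.29.

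The 7 subunits of the cytosolic chaperonin TRiC in the set, which folds actin and tubulin, all had a lower level in replicate 2. Of all 8135 genes tested, 4493 did. Cct4 had 175 and 108 reads (1.66-fold, 1.3 to 2.13), Cct8 had 138 and 88 (1.61-fold, 1.22 to 2.12), Cct6a had 107 and 62 (1.77-fold, 1.28 to 2.46) and Cct3 had 161 and 113 (1.46-fold, 1.14 to 1.87). These 4 had an adjusted p under 0.05 in Fisher's exact test (0.000948, 0.0118, 0.00896 and 0.0345), below 2-fold, and Cct3 lost it under both other scalings, over full-length reads and with the reduced total. Cct5 had 225 and 189 reads, Cct7 had 217 and 197 and Cct2 had 108 and 87, and these 3 did not pass. The median log2 ratio of the 7 was -0.54. Tcp1, the alpha subunit of the same barrel, had 100 and 85 reads and did not pass either.

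In the endoplasmic reticulum, Hspa5, the HSP70 known as BiP, had 488 reads in replicate 1 and 295 in replicate 2 (1078 and 637 CPM), 1.69-fold higher in replicate 1 (1.46 to 1.96, adjusted p = 4.16e-11, Fisher's exact test) and so under the 2-fold rule. Dnajb9, the J protein ERdj4, had 28 and 9 reads, 3.18-fold higher in replicate 1 (1.46 to 7.67, adjusted p = 0.0273, Fisher's exact test), a call on few reads that was lost over full-length reads (adjusted p = 0.0588, Fisher's exact test) and with no minimum of reads. Hsp90b1, the HSP90 known as GRP94, had 156 and 131 reads, Dnajb11 had 71 and 48, Dnajc3, which restrains the kinase PERK, had 28 and 34, and Hspa13 had 14 and 9, all without a call. The 3 genes with an ER stress element in the RefSeq promoter window, Hspa5, Hsp90b1 and Dnajc3, thus had 1.69-fold, 1.22-fold and 1.19-fold differences, the last in the opposite direction. The intervals for Hsp90b1 (0.96 to 1.55) and Dnajc3 (0.698 to 2.03) included equality, so their directions were not resolved. The median log2 ratio of the 6 genes was -0.62. Replicate 2 was the library with reads of the acinar pancreas, a cell type rich in these chaperones, and the part of those reads in the levels of this group was not tested.

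Mitochondrial chaperones were abundant, and 0 of 4 were called, where 3.16% of all genes were called. Hspd1, the chaperonin HSP60, had 842 reads in replicate 1 and 623 in replicate 2 (1861 and 1345 CPM), 1.38-fold higher in replicate 1 (1.25 to 1.54, adjusted p = 3.89e-08, Fisher's exact test). Hspe1, its lid HSP10, had 492 and 538 reads (1087 and 1161 CPM), 1.07-fold higher in replicate 2 (0.943 to 1.21). There were thus 1.71 Hspd1 reads per Hspe1 read in replicate 1 and 1.16 in replicate 2, a difference in ratio beyond counting error (two-sided Fisher's exact p = 1.83e-06), singled out after the values were seen. The pair starts 108 bases apart around the element printed above. Hspe1-201 is 774 bases long and Hspd1-201 is 2423, and over all tested genes the median log2 ratio was 0.20 for leading transcripts of 61 to 1356 bases and -0.23 for those of 2036 to 2808. The part of transcript length in the Hspd1 and Hspe1 difference was not tested. Hspa9, the mitochondrial HSP70 mortalin, had 346 and 273 reads (1.3-fold, 1.1 to 1.53, adjusted p = 0.0248, Fisher's exact test), which was above 0.05 with TMM (0.104) and DESeq2 (0.0592) scaling. Dnaja3, the J protein Tid1, had 110 and 83.

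Among small heat shock proteins, which hold unfolded proteins without ATP, Hspb1 was the 1 gene of the set with an adjusted p under 0.05 and a higher level in replicate 2. It had 158 reads in replicate 1 and 260 in replicate 2 (349 and 561 CPM), 1.61-fold higher in replicate 2 (1.31 to 1.97, adjusted p = 7.54e-05, Fisher's exact test) and under the 2-fold rule. Hspb8, the partner of Bag3, had 252 and 174 reads, 1.48-fold higher in replicate 1 (1.22 to 1.81, adjusted p = 0.00199, Fisher's exact test). Cryab, the alpha-B crystallin of muscle and lens, had 20 and 14, and Hspb6 had 8 and 7. The summed level of the group was 968 and 984 CPM, so the opposite differences of Hspb1 and Hspb8 cancelled in the sum.

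Hspb1 also has a pseudogene with reads. Hsp25-ps1, a single-exon gene at chromosome 13, 45078498 to 45079127, minus strand, had 17 reads in replicate 1 and 76 in replicate 2 and was called higher in replicate 2 (4.37-fold, 2.56 to 7.88). It matches the Hspb1 coding sequence over 630 bases with 4 differing bases (C6T, G559A, T561C and T609C, counted as above, the base of Hspb1 first). Its share of the reads of both loci was 9.71% in replicate 1 (6.15 to 15.0%) and 22.6% in replicate 2 (18.5 to 27.4%), which differed beyond counting error (Fisher's exact p = 0.000264, adjusted over 3 such pairs 0.000792). The region with the pair of neighbouring differences is shown with the differing bases in capitals.
Hspb1, coding bases 547 to 571: atcaccattccgGtTactttcgagg
Hsp25-ps1, the same bases: atcaccattccgAtCactttcgagg
With both loci summed, 175 and 336 reads, the difference was 1.88-fold (1.56 to 2.26), larger than for Hspb1 alone and still under 2-fold. In all, 7 pseudogenes with at least 90% identity to a member over 200 bases or more had reads, 1218 in replicate 1 and 686 in replicate 2, and Gm15459 and Hsp25-ps1 held nearly all of them. The promoter of Hspb1 holds 2 separate pairs of GAA units in one stretch.
Hspb1, chr5:135887669-135887918, plus strand: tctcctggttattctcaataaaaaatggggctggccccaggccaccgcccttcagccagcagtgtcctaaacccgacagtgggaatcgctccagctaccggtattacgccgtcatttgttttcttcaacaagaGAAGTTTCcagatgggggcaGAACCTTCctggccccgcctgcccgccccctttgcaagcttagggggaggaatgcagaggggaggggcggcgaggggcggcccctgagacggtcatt
A pair of units was found in the window of 3 of the 6 called genes among the 39 (Hspa1a, Hspa1b and Dnaja1). Hspa8, also called, had no window. Of the 33 others 10 held a pair, among them Hspb1 and Hsph1, and the share over all 27025 genes was 14.5%. The part of these elements in the differences between the libraries was not tested.

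Splice forms were counted over full-length reads, those of the classes Known (an annotated chain of introns), NIC (annotated splice sites in a new combination) and NNC (at least 1 unannotated splice site). Reads of the set were more often full-length than reads at large: 93.5% in replicate 1 and 91.7% in replicate 2, against 82.9 and 79.5% of all endogenous reads. The latter include reads outside annotated genes, so the comparison is not on like terms. Of 452489 and 463210 endogenous reads, 432960 and 434507 were of annotated genes. In 26 genes both libraries reached 50 full-length reads. Of these, 22 had 90% or more of them in 1 form in both, and the leading forms had median shares of 96.8 and 97.4%, against 94.7 and 95.0% over all 1321 such genes. The leading share of 25 genes could be tested. A shift of at least 10 percentage points with an adjusted p under 0.05 was found in 0 of them by Fisher's exact test, where 0.245% of 1226 genes were called. At an unadjusted p under 0.05 there was 1, Hsp90ab1, whose leading form took 97.6% and 99.3% (adjusted p = 0.249, Fisher's exact test).

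In the genes that divided their reads over forms, the Wilson intervals of both libraries overlapped. Hsph1 had 2 forms that differ by 1 coding exon. Hsph1-211, the long HSP105 form of 858 codons, had 46 of 59 full-length reads in replicate 1 and 54 of 61 in replicate 2 (78.0 and 88.5%), and Hsph1-201, of 814 codons and without exon 12 of the long form, had 8 and 6 (13.6 and 9.84%). The 44 codons that set them apart, chr5:149623465-149623596 on the minus strand, are shown here because the short form is known as the heat-inducible, nuclear one.
Hsph1-211, exon 12: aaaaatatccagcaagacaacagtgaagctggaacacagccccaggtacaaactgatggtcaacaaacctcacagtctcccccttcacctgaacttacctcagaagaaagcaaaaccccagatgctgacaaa
The short form was thus a minor one in both libraries, with Wilson 95% intervals of 7.03 to 24.5% and 4.59 to 19.8%. On 8 and 6 reads a difference in its share was not resolved, and its induction was not tested.

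Dnaja3 was led by Dnaja3-202, of 453 codons, with 81 of 102 and 63 of 81 full-length reads (79.4 and 77.8%). Dnaja3-201, of 480 codons, had 15 and 16 (14.7 and 19.8%). The longer form includes exon 11, chr16:4705844-4705960, with which it ends its coding sequence, while the shorter joins past it and ends with other codons. The coding part of that exon, 101 bases at 4705844 to 4705944 on the plus strand, was as follows.
Dnaja3-201, exon 11: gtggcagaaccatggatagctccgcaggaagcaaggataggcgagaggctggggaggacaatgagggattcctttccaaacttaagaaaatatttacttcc
The C-terminal end therefore came from the shorter form in about 4 of 5 transcripts read, in both libraries.

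Dnajb6 had its short form ahead. Dnajb6-203, of 242 codons and known as the cytosolic form that blocks aggregation, had 43 of 67 and 38 of 63 full-length reads (64.2 and 60.3%), and Dnajb6-201, of 365 codons and known as the nuclear form, had 16 and 14 (23.9 and 22.2%). The short form ends within an extended exon at 29767103 on chromosome 5, whereas the long one runs on to 29786478. An unannotated combination of 7 exons had 5 and 5 reads.

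Hspa5 had 2 annotated forms of the same 655 codons. Hspa5-201 took 363 of 468 and 230 of 286 full-length reads (77.6 and 80.4%), and Hspa5-202, which keeps the first intron unspliced before the start codon and ends earlier at 34776531 against 34777547 on chromosome 2, took 98 and 56 (20.9 and 19.6%). Dnajb2, a neuronal J protein, had too few full-length reads for the test, 49 and 44. Its reads divided over Dnajb2-207 (21 and 19), Dnajb2-202 (14 and 10) and Dnajb2-210 (10 and 11), the first pair with 277 codons and the last with 324, so the short protein form led in both libraries.

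**Figure D4:**
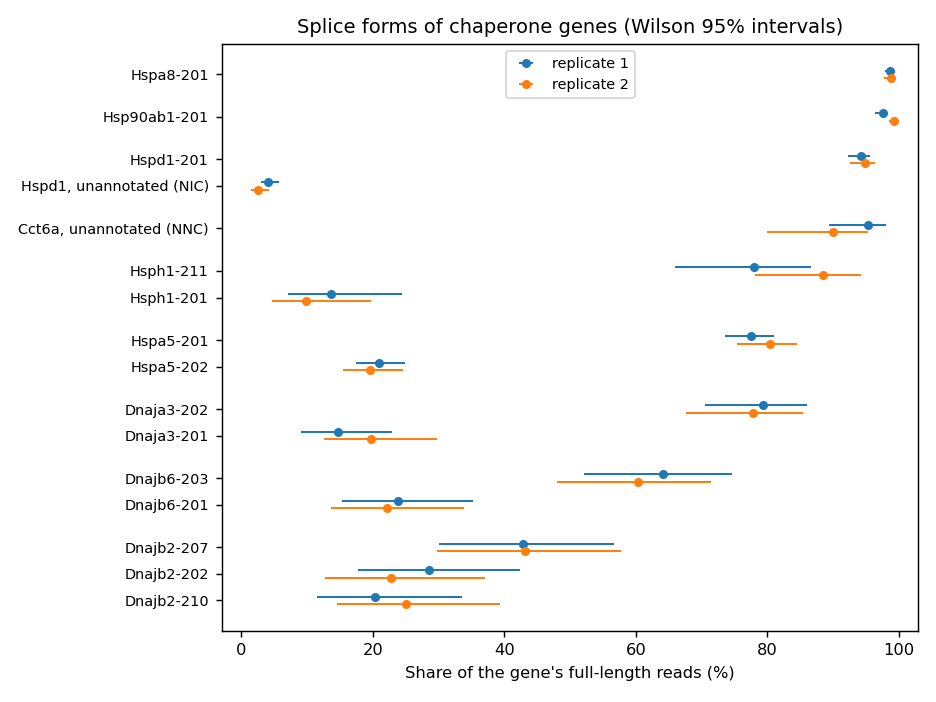
Share of each gene's full-length reads in the named splice forms, in percent, for replicates 1 and 2, with Wilson 95% intervals. Within each form the intervals of replicates 1 and 2 overlap, apart from Hsp90ab1-201 (97.6 and 99.3%), whose intervals nearly meet.

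Hspd1 carried a recurrent unannotated form. Its leading form Hspd1-201 had 732 of 777 and 529 of 558 full-length reads (94.2 and 94.8%), while a NIC chain that joins the first exon of Hspd1-202 to the whole body of Hspd1-201 had 32 and 14 (4.12 and 2.51%). That first exon reaches 55088243, past the start of Hspe1 at 55088132 on the opposite strand, and so contains the heat shock element printed above. The 2 annotated Hspd1 starts therefore lie on either side of the element. The form with the start between the element and the body held most of the full-length reads in both libraries. Forms were told apart by their introns, so where each read started was not measured.

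Cct6a was the 1 gene of the set led by an unannotated form, out of 33 that reached 20 full-length reads in both, against 65 of 3030 genes (2.15%). It had 0 Known reads in either library. An NNC chain of 13 exons took 101 of 106 full-length reads in replicate 1 and 54 of 60 in replicate 2 (95.3 and 90%). The gene lies at chromosome 5, 129786998 to 129846371, plus strand (mm10), where M21 lists no coding transcript of it. The chain follows Cct6a-202 exon by exon, except at the intron of 50376 bases from 129794561 to 129844936. There the tenth exon ran 61 bases past its annotated end at 129794499 and the next began 33 bases before its annotated start at 129844970, and neither splice site is annotated. A second chain, with 2 and 3 reads, ended the tenth exon 105 bases past the annotated end and kept the annotated start of the next. The sequence across this junction is not used here.

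**Figure D5:**
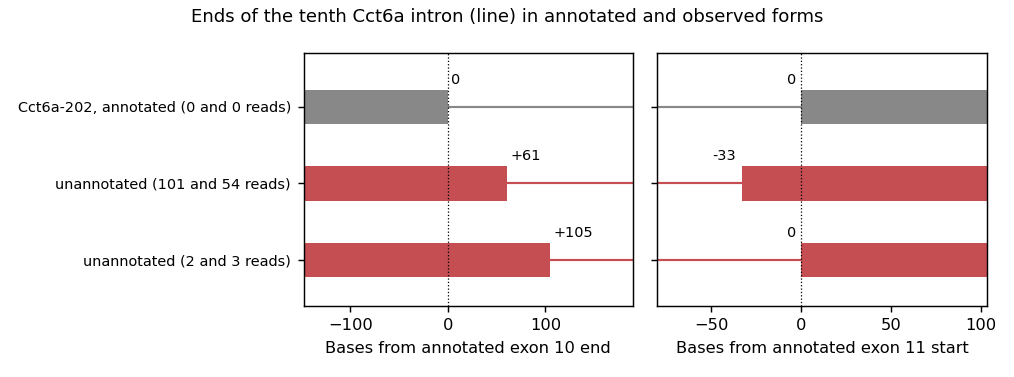
Ends of the exons around the tenth Cct6a intron in the annotated Cct6a-202 and in the 2 unannotated chains, in bases from the annotated exon end (left) and from the annotated start of the next exon (right), with bars for exons and lines for the intron. The main chain ends 61 bases later and starts 33 bases earlier than annotated, and the minor one ends 105 bases later.

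Incomplete and unspliced reads were a small part of the set, 5.29 and 6.54% incomplete matches and 1.21 and 1.74% of the Genomic class, which overlaps a gene without its splicing. The Genomic share was larger in some genes. In Hspa4 it was 25.8% in replicate 1 (17 of 66 reads) and 20.4% in replicate 2 (10 of 49), and in Hspa9 it was 8.38 and 13.9%. Bag3 stood out, with 40 of 101 reads in replicate 1 (39.6%, Wilson 95% interval 30.6 to 49.4%) and 17 of 38 in replicate 2 (44.7%, 30.1 to 60.3%) as incomplete matches. Of these, 35 and 13 fell in 1 model of 2 exons and 1794 bases, chr7:128541807-128546981, made of the last 2 of the 4 exons of Bag3-201. Over full-length reads alone Bag3 had 61 and 21 reads and was still called. In Fkbp4 a single-exon model of 778 bases at the 3′ end had 17 reads in replicate 2, classed as incomplete matches. In replicate 1 a single-exon model of 240 bases at the same end had 7 reads, classed as Genomic. Whether such reads are shorter transcripts or broken ones was not tested.

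The other genes of the chaperone system, listed by function, had 1 call in 56 tested, where 3.16% of all genes were called. Of 67 such genes 62 had reads. Of the tested ones 40 had a lower and 16 a higher level in replicate 2, against 4493 and 3642 of all 8135 genes. The median log2 ratio of the 56 was -0.27, against -0.03 over all genes. At any fold 5 of the 56 had an adjusted p under 0.05, against 6.45% of all genes. The called gene was Atf4, a transcription factor of the integrated stress response, with 69 and 31 reads, 2.28-fold higher in replicate 1 (1.47 to 3.6, adjusted p = 0.00242, Fisher's exact test). Another 4 had an adjusted p under 0.05 below 2-fold: Xbp1 with 195 and 114 reads, Pdia6 with 171 and 106, Serpinh1, the collagen chaperone, with 351 and 244, and Lonp1, the mitochondrial protease, with 529 and 442, of which Pdia6 was singled out after its value was seen. Among HSP70 partners Stub1, a ubiquitin ligase, had 164 and 162 reads and Bag1, an exchange factor, had 167 and 163, neither called. The disulfide isomerases P4hb with 418 and 351 reads and Pdia3 with 250 and 228 were not called, nor were the mitochondrial Grpel1, an exchange factor for mortalin, with 177 and 177, and Clpp, a protease, with 79 and 92. The 9 other HSP90 partners, led by Cdc37 with 155 and 131 reads and Trap1 with 96 and 98, had a median log2 ratio of -0.58 with 0 called. The 7 tested prefoldin and other chaperonin subunits, among them Pfdn5 with 87 and 109 reads and Pfdn2 with 47 and 55, had a median of 0.04 with 0 called. Ddit3, the CHOP factor of prolonged ER stress, singled out after its values were seen, had 17 and 37 reads and did not pass (adjusted p = 0.107, Fisher's exact test).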

How the data were processed

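The 2 adrenal libraries of 1 group were compared. Per the file headers and the notes deposited beside the tables, the authors assigned long reads aligned to mm10 to GENCODE M21 transcripts or unannotated models, written in the format of TALON, and deposited whole read counts per model, not normalized. Tool versions and settings: not given in the sources used here. Model lengths and coordinates came from the same deposited files. Spike-in reads (1.2 and 3.3% of reads) were left out. Counts were summed per gene over all classes and scaled to CPM, where 1 read was worth 2.21 and 2.16 CPM. Fisher's exact test, Benjamini-Hochberg adjustment, exact conditional intervals of ratios and Wilson intervals (95%) were computed with scipy 1.17.1 under Python 3.11.15. edgeR 4.0.16 and DESeq2 1.42.0 (R 4.3.3) gave alternative scalings only. Intervals and limits cover counting error of independent reads only. Reads of amplified cDNA may repeat a molecule, and where they do, the intervals are too narrow and the p-values too small. A count of 0 allows up to 6.63 and 6.48 CPM (3 counts). The tests were checked on counts simulated with counting error alone, so that check does not cover variation between libraries or repeated molecules. Promoter matches used the letters given in the text. Near-identical pseudogenes were found with blastn, at 90% identity over 200 bases. Every member is accounted for by its reads, unannotated forms of members were named from 10 reads summed, and of the other pathway genes those called and the 3 with the most reads in each list were named, exceptions being marked in the text; 1 gene that this rule names is not reported here. The members and lists were chosen with earlier results of these data known.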

Additional observations from a re-analysis of the deposited data

How the results depend on the processing

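The count of 7 called genes was 6 with TMM scaling (without Hspa8), 7 with DESeq2 size factors, 5 over full-length reads (without Hspa8 and Dnajb9), 6 with no minimum of reads (without Dnajb9) and 7 under the other planned settings that kept the 2-fold rule. At 1.5-fold it was 12, with 11 higher in replicate 1 and 1, Hspb1, higher in replicate 2, where 4.9% of all genes were called. The median log2 ratio stayed between -0.47 and -0.34, the latter after subtracting the median of tested genes of like transcript length, which leaves out Cct6a. With TMM scaling it was -0.41 against 0.03 over all genes. Of 108 alternative values for the 18 genes with an adjusted p under 0.05, 0 changed direction and 14 lost that threshold. Part of the 108 could not change: adding 5 instead of 1 CPM leaves every p-value as it was. Adding pseudogene reads alters the reads of Hspa8 and Hspb1 alone. The losses were 4 with TMM, 4 with DESeq2, 3 over full-length reads and 3 with the reduced total. Leaving out 1 library gave summed levels of 13376 and 18604 CPM. Adding the reads of Gm15459 and Hsp25-ps1 to Hspa8 and Hspb1, an alternative chosen after seeing the data, left 7 called and a summed level of 18063 ± 4552 CPM (SD, n = 2). No leading form was called at a minimum of 20 reads or over Known forms. With 2 libraries that may share an animal, variation between animals cannot be told apart from technical variation, and genes with fewer than about 30 reads resolve only large differences. No paired analysis was possible because there is 1 group.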
